A study of Mus musculus with 8 samples.

Results

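The genes examined here encode Kv2 voltage-gated potassium channel subunits and the silent Kv subunits that assemble with them. The 7 members, Kcnb2, Kcnf1, Kcng1, Kcng2, Kcns1, Kcns2 and Kcnv1, were chosen by name and matched by gene symbol among the 38553 genes of the deposited table. They account for 8 entries of that table, because the symbol Kcnb2 stands for 2 gene identifiers at 1 locus. Of the 7 members, 5 passed the filters for the comparison of regions, and Kcng2 and Kcns1 did not. RNA-Seq was carried out on dorsal and ventral medial entorhinal cortex (MEC), with 4 libraries from each region. The animals were 13 male C57Bl/6JolaHsd mice, 8 weeks old, with no treatment or genetic modification named for either region. A sagittal slice 400 µm thick was taken from the right hemisphere of each animal, and tissue of 3 or 4 animals was pooled for every library. Each value therefore describes a pool of microdissected tissue with all its cell types, and the spread between libraries is the spread between pools. Dorsal and ventral tissue came from the same 4 groups of animals, so the regions share their mice. Which libraries come from the same group was not given, so the regions were compared unpaired.

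Kv2 subunits form delayed rectifier channels that open slowly on depolarization and help to repolarize neurons, particularly during repetitive firing. The silent subunits of the Kv5, Kv6, Kv8 and Kv9 groups do not make working channels by themselves. They join Kv2 subunits in mixed tetramers and change how the channel gates, for example its voltage dependence, its speed of closing or how many channels reach the membrane.

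A feature of the coding sequence that separates these groups lies at the inner gate, where Kv2 subunits carry a pair of prolines around a middle residue. To show it, the stretch from the selectivity filter to the gate is given for Kcnb2 and for 5 of the silent members, 96 bases (32 codons) each. The sequences were read 5′ to 3′ on the coding strand from the GENCODE M21 transcripts on GRCm38. The capitals at the start mark the 3 codons of the glycine-tyrosine-glycine signature of the filter, and those at the end mark the 3 gate codons. No splice junction falls inside any of these windows.
Kcnb2, chr1:15710052-15710147, plus strand, exon 3 of 3: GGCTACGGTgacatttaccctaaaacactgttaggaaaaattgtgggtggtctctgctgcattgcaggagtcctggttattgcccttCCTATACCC
Kcnf1, chr12:17174974-17175069, minus strand, exon 1 of 1: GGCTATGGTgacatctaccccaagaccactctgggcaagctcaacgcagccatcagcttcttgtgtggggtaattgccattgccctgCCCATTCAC
Kcng1, chr2:168262554-168262649, minus strand, exon 3 of 3: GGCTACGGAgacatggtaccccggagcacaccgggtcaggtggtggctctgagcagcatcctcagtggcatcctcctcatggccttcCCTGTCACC
Kcns1, chr2:164164767-164164862, minus strand, exon 4 of 4: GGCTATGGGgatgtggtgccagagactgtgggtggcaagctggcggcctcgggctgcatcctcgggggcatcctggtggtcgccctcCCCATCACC
Kcns2, chr15:34839618-34839713, plus strand, exon 2 of 2: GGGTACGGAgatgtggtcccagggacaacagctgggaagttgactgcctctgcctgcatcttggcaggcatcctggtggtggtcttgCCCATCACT
Kcnv1, chr15:45109202-45109297, minus strand, exon 3 of 3: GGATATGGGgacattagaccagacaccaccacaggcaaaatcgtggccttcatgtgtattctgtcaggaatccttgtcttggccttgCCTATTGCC

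All 6 silent members, Kcng2 included, have a proline codon at the first gate position, and 6 of 6 lack one at the third, where Kcnb2 has CCC. The third gate codon is CAC in Kcnf1, ACC in Kcng1 and Kcns1, ACT in Kcns2 and GCC in Kcnv1. The other 4 silent genes of the mouse, Kcng3, Kcng4, Kcns3 and Kcnv2, also lack a proline codon there. Over the whole window, the silent members shown share with Kcnb2 59.4% of bases (Kcnf1), 58.3% (Kcnv1), 55.2% (Kcns1), 52.1% (Kcns2) and 51% (Kcng1). These sequences describe the genes and were not read from the libraries.

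Expression is given as FPKM, the fragments of a gene scaled to exon length and to the fragments mapped, which allows levels of different genes to be compared per length. The headers of the FPKM table name libraries by the letters D and V, and for 4 of the 8 libraries the letter names the other region than the one used here. The means over columns D1, V1, D2 and V2 equal the authors' dorsal means, and those over D3, V3, D4 and V4 their ventral means, within 0.1% for 14956 of 14989 genes with enough alignments. The next best of the 70 possible assignments matched 287 genes. Columns are called by their headers below, so V1 and V2 are dorsal libraries and D3 and D4 ventral ones, and the comparisons were also made under the headers' regions.

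Total FPKM per library ranged from 298763 to 341402, and was highest in V2 among dorsal and in V4 among ventral libraries. Between 13540 and 13925 genes reached an FPKM of 1. The number of fragments per library was not used, so the depth behind each value is unknown and no counting interval is given. Markers of glutamatergic neurons, the principal cells of cortex, were high in both regions, with a summed FPKM of 630 to 785 in dorsal and 637 to 799 in ventral libraries, and 0 of 6 differed. Other marker lists differed between regions. All 8 oligodendrocyte markers were higher dorsally (summed FPKM 851 to 1126 dorsally and 468 to 615 ventrally). For parvalbumin interneurons, 2 of 5 markers were higher dorsally and 1 ventrally (60.2 to 68.4 against 44.6 to 52.3). For somatostatin interneurons, Npy was higher dorsally and Sst ventrally, out of 2 tested (97.5 to 170 against 178 to 271). For leptomeningeal cells, 1 of 3 markers tested was higher ventrally (27.0 to 35.6 against 51.5 to 64.8). Of the lists for GABAergic neurons, astrocytes, microglia and endothelial cells, 0 of 5 markers each were called, although the summed FPKM was higher in every ventral library for astrocytes (154 to 164 against 171 to 185) and microglia (37.0 to 40.2 against 41.5 to 45.4). Of the 3 CA1 and subiculum markers tested, Wfs1 was higher dorsally (mean FPKM 76.6 against 52.5). Fn1 (10.8 against 16.6) and Fibcd1 (0.641 against 2.52) were higher ventrally. Most of the summed FPKM of that list (75.8 to 99.6 against 63.4 to 80.8) came from Wfs1. The authors show Wfs1 as an example of layer-specific expression within MEC, so that sum does not measure CA1 or subiculum tissue. For MEC layer II, 1 of 4 markers was called each way (49.6 to 57.0 against 52.8 to 62.9), and for dentate granule cells 0 of 1. No marker in these lists was at 0 in every library, and the part of cell composition in any result below was not tested. In such bulk tissue, fewer cells of a type and less RNA per cell cannot be told apart.

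Among the 7 members, the silent subunit gene Kcng1 was the only one that passed the test for a difference between regions, and it was higher in ventral MEC, by 1.82-fold in mean FPKM. Kcnb2 and the silent subunit genes Kcnf1 and Kcns2 differed by less than 10% in mean FPKM, and Kcnv1 was 18.4% lower ventrally without passing the test. Libraries were compared with limma on log2(FPKM + 1), with p-values adjusted over all 13674 genes tested, and a gene was called at an adjusted p under 0.05 with at least 20% more mean FPKM in one region. By this rule 0 of the 5 tested members were D>V (higher dorsally) and 1 was V>D (higher ventrally). Over all genes tested, 2.15% were D>V, 1.45% were V>D and 3.6% were either. The median log2 ratio of ventral to dorsal mean FPKM, log2(V/D), was 0.08 over the 5 members.

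**Figure D1:**
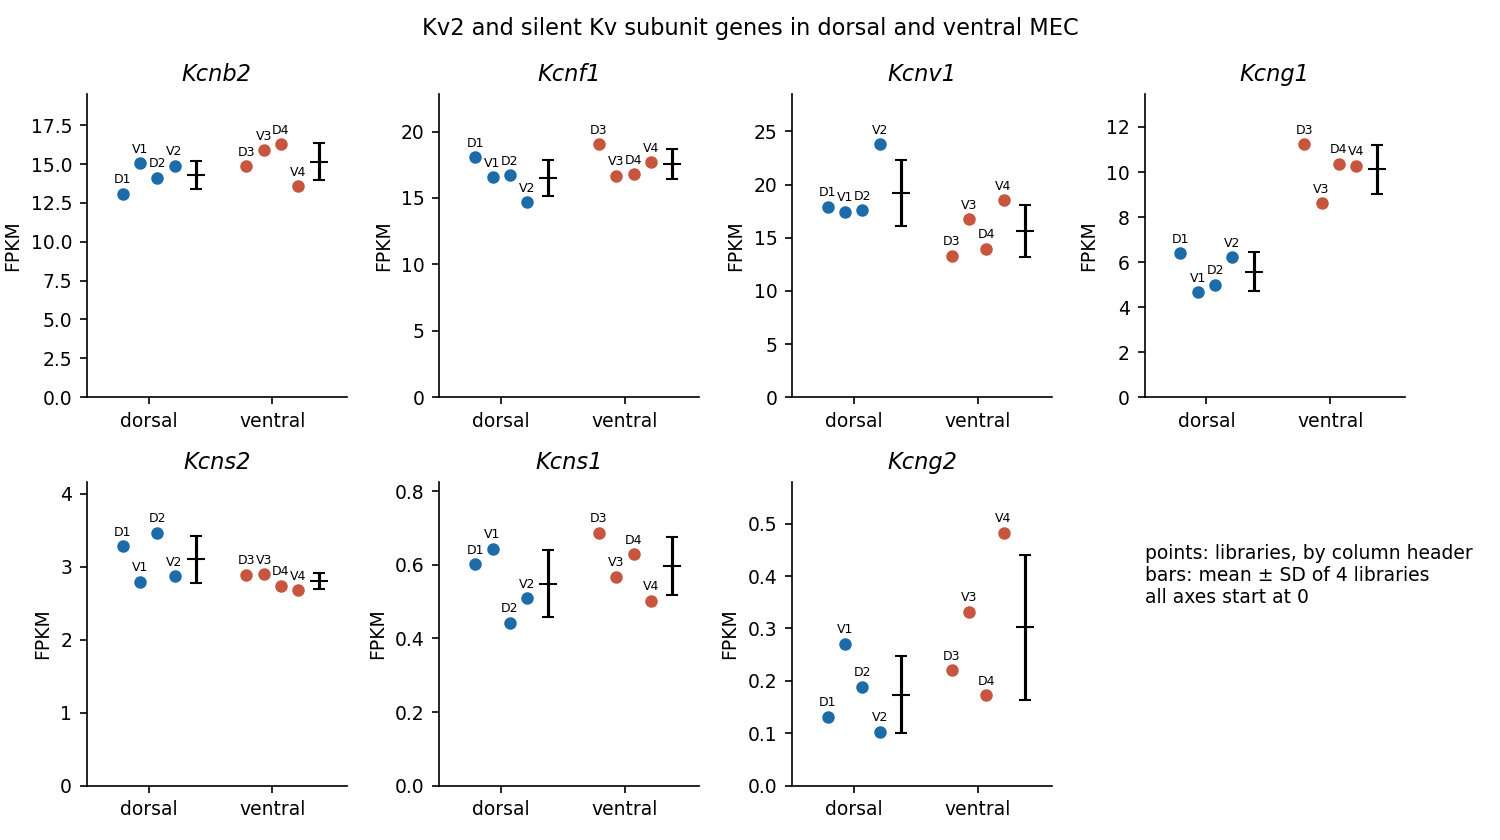
FPKM of each member in the 4 dorsal (blue) and 4 ventral (red) libraries, labelled by column header, with bars for the mean ± SD. Each panel has its own axis from 0. All 4 ventral points of Kcng1 (8.62 to 11.2) lie above all 4 dorsal points (4.66 to 6.40), and the points of every other member overlap between regions.

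By level, the members fell into a high, a middle and a low set. With Kcnb2 read from its GENCODE M21 entry alone, Kcnv1 had the highest mean over the 8 libraries, an FPKM of 17.4 ± 3.20 (SD, n = 8). Kcnf1 followed with 17.0 ± 1.28 and Kcnb2 with 14.7 ± 1.09 (SD, n = 8). Summed with its second entry, described below, Kcnb2 had a mean FPKM of 23.5 in dorsal and 23.5 in ventral libraries. That is above the means of Kcnv1 and Kcnf1, so the rank of Kcnb2 depends on the entry used. Kcnv1 exceeded Kcnf1 in only 5 of the 8 libraries, so the order of this pair is not separated by its spread, and Kcnf1 exceeded Kcnb2 in 7. Kcng1 came next with 7.84, then Kcns2 with 2.95, Kcns1 with 0.573 and Kcng2 with 0.238, and each of these was below the gene before it in 8 of 8 libraries. Relative to its mean, Kcng1 varied more over the 8 libraries (coefficient of variation 33.2%) than within dorsal (15.6%) or ventral (10.8%) libraries. Kcnb2 (7.37%), Kcnf1 (7.53%) and Kcns2 (9.31%) varied least, and Kcng2, near the lower end of detection, varied most (51.9%).

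Kcnb2 encodes Kv2.2, the conducting partner among the members. Its gene (ENSMUSG00000092083) lies on the plus strand at chr1:15287254-15723750. Its FPKM was 13.1 in D1, 15.1 in V1, 14.1 in D2 and 14.9 in V2, the dorsal libraries, and 14.9 in D3, 15.9 in V3, 16.3 in D4 and 13.6 in V4, the ventral ones. The regions overlapped, with V4 the second lowest library of all. The means were 14.3 ± 0.896 dorsally and 15.2 ± 1.20 ventrally (SD, n = 4 each), a log2(V/D) of 0.08. The limma log2 fold change, ventral minus dorsal as for all those below, was 0.08 with a standard error of 0.075 (adjusted p = 0.689), and its 95% interval ran from -0.09 to 0.25.

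The second entry under this symbol, ENSMUSG00000090498, has the same locus in the deposited table and no entry in GENCODE M21. Its FPKM was 10.004, 7.89, 8.35 and 10.7 in D1, V1, D2 and V2 and 8.06, 8.13, 7.22 and 10.1 in D3, V3, D4 and V4, so that the regions overlapped here too. It had an FPKM of 9.23 ± 1.33 dorsally and 8.39 ± 1.24 ventrally (SD, n = 4 each), which limma put at -0.12 on the log2 scale (standard error 0.116, adjusted p = 0.681). The division of fragments between the entries is uncertain. Summed, they came to 23.5 ± 1.39 in dorsal and 23.5 ± 0.468 in ventral libraries (SD, n = 4 each).

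Kcng1 encodes Kv6.1, a silent subunit known to shift the inactivation of Kv2 channels to more negative voltages. The gene (ENSMUSG00000074575) lies on the minus strand at chr2:168260117-168281736, and no exon of another annotated gene overlaps its exons. In the dorsal libraries its FPKM was 6.40 in D1, 4.66 in V1, 4.996 in D2 and 6.21 in V2. In the ventral libraries it was 11.2 in D3, 8.62 in V3, 10.4 in D4 and 10.3 in V4. Every ventral library was above every dorsal library. The gap between the highest dorsal and lowest ventral library was wider than the dorsal range but narrower than the ventral range.

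The mean FPKM of Kcng1 was 5.57 ± 0.867 dorsally and 10.1 ± 1.09 ventrally (SD, n = 4 each), a log2(V/D) of 0.86. The log2 fold change on the log2(FPKM + 1) scale, which draws low values together and so makes changes of weakly expressed genes look smaller, was 0.76 with a standard error of 0.110 (adjusted p = 0.00408, limma) and a 95% interval from 0.52 to 1.008. An exact two-sided permutation test over the 8 libraries gave p = 0.0286, the smallest it can give with 4 against 4. Kcng1 was the 44th of the 198 V>D genes by ratio of means, and the 121st of all 13674 genes by p. It was also the only tested member whose regions did not overlap. Over all genes tested, the libraries did not overlap with ventral higher for 4.95%, with dorsal higher for 6.17% and in either direction for 11.1%.

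With each library left out in turn, Kcng1 kept a log2 fold change between 0.70 and 0.83, with an adjusted p between 0.00455 and 0.0176 (limma). Under the regions that the header letters name, it was -0.12 (standard error 0.266, adjusted p = 0.981, limma). The libraries whose letter and assigned region agree show the same order as the rest. Of these, the dorsal D1 and D2 had an FPKM of 6.40 and 4.996, and the ventral V3 and V4 had 8.62 and 10.3. Among the libraries with contradictory letters, the dorsal V1 and V2 had 4.66 and 6.21, and the ventral D3 and D4 had 11.2 and 10.4.

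**Figure D2:**
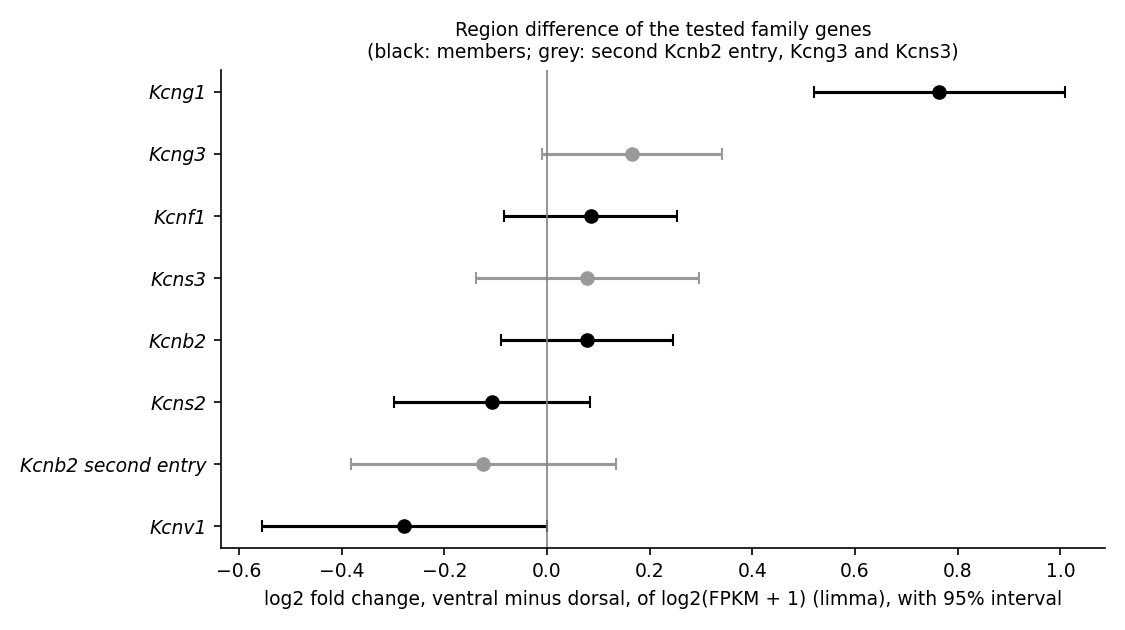
Log2 fold change of log2(FPKM + 1), ventral minus dorsal, with its 95% interval from limma, for the 5 tested members (black) and for the second entry of Kcnb2, Kcng3 and Kcns3 (grey). The interval of Kcng1, from 0.52 to 1.008, is the only one well away from 0, and that of Kcnv1 ends at 0.

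Kcnv1 encodes Kv8.1, a silent subunit that reduces Kv2 currents when it is abundant. The gene (ENSMUSG00000022342) lies on the minus strand at chr15:45106284-45114920. Its FPKM was 17.9 in D1, 17.4 in V1, 17.6 in D2 and 23.8 in V2, and 13.3 in D3, 16.8 in V3, 14.0 in D4 and 18.5 in V4. V2 stood far above the other dorsal libraries, which lay close together, and the ventral V4 was above 3 of the 4 dorsal ones, so the regions overlapped. The means were 19.2 ± 3.09 dorsally and 15.6 ± 2.44 ventrally (SD, n = 4 each). The log2 fold change was -0.28 with a standard error of 0.125 (p = 0.04998 before and 0.312 after adjustment, limma), and an exact two-sided permutation test gave p = 0.143. At an unadjusted p under 0.05, which 16% of all genes tested met, Kcnv1 and Kcng1 would both pass, but Kcnv1 does not after adjustment. Without V2 its log2 fold change was -0.17 (adjusted p = 0.508, limma).

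Kcnf1 encodes Kv5.1, a silent subunit widely expressed in cortical neurons. The gene (ENSMUSG00000051726), with a single exon, lies on the minus strand at chr12:17172100-17176888. Its FPKM was 18.1 in D1, 16.6 in V1, 16.7 in D2 and 14.7 in V2, and 19.1 in D3, 16.7 in V3, 16.8 in D4 and 17.7 in V4. The regions overlapped almost fully, apart from the low V2 and the high D3. The means of 16.5 ± 1.38 and 17.6 ± 1.10 (SD, n = 4 each) differed by 0.09 on the log2 scale in limma (standard error 0.0755, adjusted p = 0.661), with a 95% interval from -0.08 to 0.25.

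Kcns1 and Kcns2 encode Kv9.1 and Kv9.2, silent subunits that slow the closing of Kv2 channels. Kcns2 (ENSMUSG00000050963) lies on the plus strand at chr15:34837355-34843407. Its FPKM was 3.28 in D1, 2.79 in V1, 3.47 in D2 and 2.87 in V2, and 2.89 in D3, 2.90 in V3, 2.74 in D4 and 2.68 in V4. D1 and D2 were higher than all other libraries, and the remaining 6 lay close together. The means of 3.10 ± 0.322 and 2.80 ± 0.111 (SD, n = 4 each) differed by -0.11 on the log2 scale in limma (standard error 0.0855, adjusted p = 0.621), with a 95% interval from -0.30 to 0.08.

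Kcns1 (ENSMUSG00000040164) lies on the minus strand at chr2:164163619-164171113, the same chromosome as Kcng1. Its FPKM was 0.602 in D1, 0.644 in V1, 0.442 in D2 and 0.509 in V2, and 0.687 in D3, 0.568 in V3, 0.629 in D4 and 0.502 in V4. The regions overlapped. The authors marked the gene as having too few alignments, so it was not tested with the others. An exact two-sided permutation test on log2(FPKM + 1) gave p = 0.457 for means of 0.549 ± 0.0907 and 0.597 ± 0.0797 (SD, n = 4 each).

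Kcng2, the gene of Kv6.2, was the member with the lowest level and was also marked as having too few alignments. It (ENSMUSG00000059852) lies on chromosome 18, minus strand, and an exon of D330025C20Rik overlaps its exons, so fragments of the pair are uncertain where strand was not kept. Its FPKM was 0.131 in D1, 0.271 in V1, 0.189 in D2 and 0.103 in V2, and 0.220 in D3, 0.332 in V3, 0.173 in D4 and 0.483 in V4. V4 was the highest and the other ventral libraries reached into the dorsal range. The means were 0.174 ± 0.0740 and 0.302 ± 0.138 (SD, n = 4 each), and an exact two-sided permutation test on log2(FPKM + 1) gave p = 0.171. With no filter on FPKM or alignments, which was chosen after seeing the data, Kcng2 had a log2 fold change of 0.15 (adjusted p = 0.545, limma) and Kcns1 one of 0.04 (adjusted p = 0.847, limma).

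Because silent subunits need a Kv2 partner, their levels were next set against each other and against Kcnb2 within each library. The summed FPKM of the 6 silent members was 45.1 ± 2.69 in dorsal and 47.0 ± 2.37 in ventral libraries (SD, n = 4 each). This was 3.17 ± 0.305 times the FPKM of Kcnb2 dorsally and 3.13 ± 0.419 times ventrally, values that overlap between regions. Kcnb2 here and in the ratios below is its GENCODE M21 entry alone, unless both entries are named. Within that sum the make-up differed. Kcng1 took 10.999% to 13.8% of the silent sum in dorsal and 18.8% to 23.7% in ventral libraries, with no overlap. Kcnv1 took 38.6% to 49.4% dorsally and 28.1% to 36.9% ventrally, also with no overlap. Under the headers' regions both shares overlapped, from 11.5% to 23.7% (D) and 10.999% to 20.5% (V) for Kcng1 and from 28.1% to 40.5% (D) and 36.6% to 49.4% (V) for Kcnv1. Shares of a sum depend on each other, so that a higher share of Kcng1 lowers the others. The share of Kcnf1 was 36.8% ± 4.19 and 37.4% ± 2.12 and that of Kcns2 was 6.90% ± 0.856 and 5.97% ± 0.436 (SD, n = 4 each), and both overlapped.

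**Figure D3:**
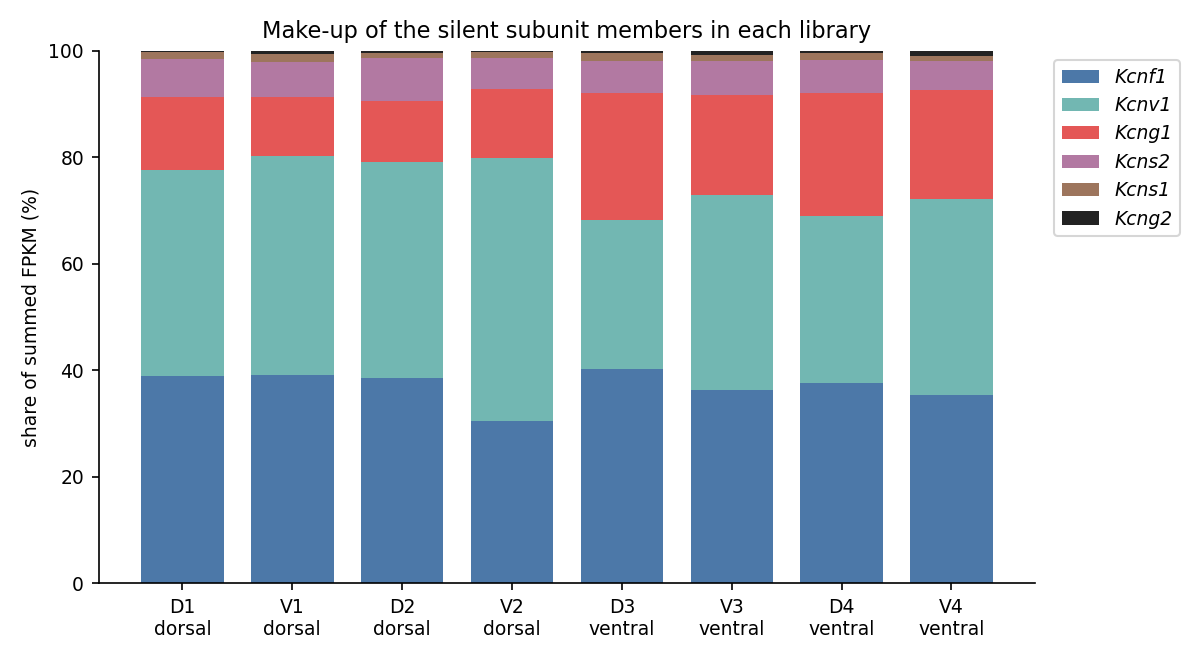
Share of each silent member in the summed FPKM of the 6 silent members, as stacked bars from 0 to 100%, for each library with its region. The Kcng1 band is wider in the 4 ventral libraries (18.8% to 23.7%) than in the 4 dorsal ones (10.999% to 13.8%), and the Kcnv1 band is narrower.

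The log2 ratio of each silent member to Kcnb2 was compared between regions with exact two-sided permutation tests, adjusted over the 6 ratios. The geometric mean of the Kcng1 to Kcnb2 ratio was 0.386 in dorsal and 0.666 in ventral libraries, a difference of 0.79 on the log2 scale. Its libraries did not overlap, and the exact p was 0.0286 (0.171 after adjustment). As 0.0286 is the smallest p this design gives, a single ratio at that limit cannot pass the adjustment over 6. The Kcnv1 to Kcnb2 ratio was 1.33 dorsally and 1.02 ventrally, a difference of -0.38 (exact p = 0.0857, adjusted 0.257). The differences for the others were 0.70 for Kcng2, -0.23 for Kcns2, 0.04 for Kcns1 and 0.01 for Kcnf1, with adjusted p from the exact test between 0.300 and 0.971. Taken over both entries of Kcnb2, an alternative chosen after seeing the data, the difference for Kcng1 was 0.87.

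**Figure D4:**
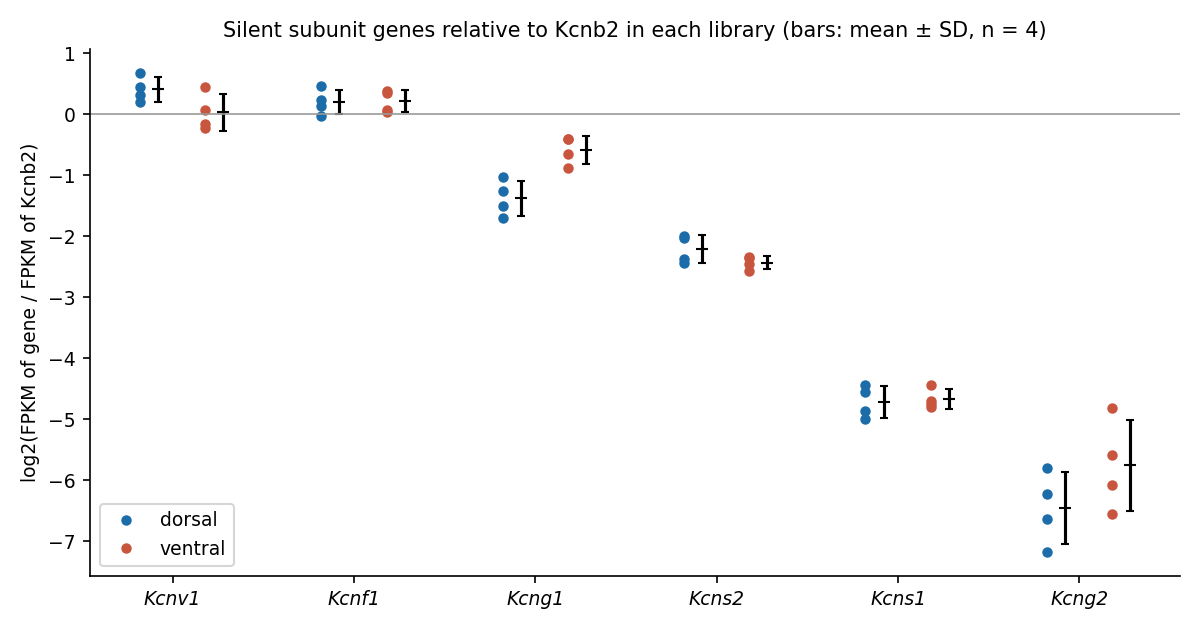
Log2 ratio of the FPKM of each silent member to that of Kcnb2 in the 4 dorsal (blue) and 4 ventral (red) libraries, with bars for the mean ± SD. The line at 0 marks FPKM equal to that of the GENCODE M21 entry of Kcnb2, with the second entry not counted. Kcnv1 and Kcnf1 lie near that line, Kcns1 and Kcng2 far below it, and the ventral points of Kcng1 lie above its dorsal points without overlap.

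Of the 10 silent subunit genes, 4 are not members. Kcng3 (Kv6.3) had an FPKM of 6.07 ± 0.503 in dorsal and 6.92 ± 0.468 in ventral libraries (SD, n = 4 each; adjusted p = 0.345, limma), and Kcns3 (Kv9.3) had 3.53 ± 0.478 and 3.77 ± 0.279 (adjusted p = 0.769, limma). Neither was called. Kcnv2 (Kv8.2) was near 0, with means of 0.0153 and 0.0198. Summed over all 10 silent genes, FPKM was 55.6 ± 2.80 dorsally and 58.0 ± 2.50 ventrally (SD, n = 4 each), and Kcng1 made up 9.98% ± 1.24 and 17.5% ± 1.75 of it.

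Kcng4, the gene of Kv6.4 and so of the same Kv6 group as Kcng1, ran in the opposite direction at a low level. Its FPKM was 0.709 in D1, 1.28 in V1, 0.929 in D2 and 0.808 in V2, and 0.161 in D3, 0.294 in V3, 0.331 in D4 and 0.290 in V4. Every dorsal library was above every ventral one. Its mean over the 8 libraries, 0.601, was under the minimum of 1 for the test. With the minimum lowered to an FPKM of 0.1, its log2 fold change was -0.60 (standard error 0.117, adjusted p = 0.0211, limma), and with no filter on FPKM or alignments the adjusted p was 0.0291 (limma). The exact two-sided permutation test gave p = 0.0286. Its log2(V/D) was -1.79. Under the headers' regions its libraries overlapped, at 0.161 to 0.929 (D) and 0.290 to 1.28 (V).

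Proteins that bind or regulate Kv2 channels were read from a list of 13 genes, 11 of them tested, and 0 were called in either direction. Over all genes tested 3.6% were called, so 0 calls in so short a list say little. Their median log2(V/D) was -0.15, against -0.005 over all genes tested. Amigo1, an auxiliary membrane protein of Kv2 channels, had an FPKM of 16.3 ± 0.339 in dorsal and 14.5 ± 0.837 in ventral libraries (SD, n = 4 each), and limma gave a difference of -0.16 (standard error 0.0615, adjusted p = 0.231). The subunits of calcineurin, the phosphatase that dephosphorylates Kv2 channels, had log2 fold changes of -0.30 for Ppp3r1 (adjusted p = 0.137, limma), -0.17 for Ppp3ca (adjusted p = 0.313, limma) and -0.15 for Ppp3cb (adjusted p = 0.400, limma). Vapa and Vapb, the endoplasmic reticulum proteins that Kv2 channels bind where this membrane meets the plasma membrane, had log2 fold changes of -0.16 each. Those of the SNARE proteins were 0.01 for Stx1a and -0.21 for Snap25. The kinase Cdk5 had 0.01, and the SUMO protease Senp1 had 0.03. Kcne2 and Kcne3, accessory subunits, were not tested, with mean FPKM of 0.137 and 0.159 dorsally and 0.0639 and 0.396 ventrally.

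Genes of other voltage-gated potassium channel alpha subunits were read for comparison. Of 12 tested Kv1, Kv4 and Kv7 genes, 3 were D>V and 1 was V>D, with a median log2(V/D) of -0.16. Kcna1, the axonal Kv1.1 subunit, had 42.9 ± 2.23 and 29.6 ± 1.13 (log2 fold change -0.52, adjusted p = 0.00162, limma). The M-current subunit genes Kcnq3 and Kcnq5 had log2 fold changes of -0.40 (adjusted p = 0.0138, limma) and -0.42 (adjusted p = 0.0144, limma). Kcnd3, which encodes the A-type Kv4.3 subunit, had 14.0 ± 1.04 and 18.8 ± 0.804 (log2 fold change 0.40, adjusted p = 0.0102, limma). Kcng1 and Kcnd3 were the 2 V>D genes among the subunits named here.

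The genes whose log2(FPKM + 1) over the 8 libraries was most like that of each tested member were found by Pearson's r, as a description. The 8 points share their libraries and, for Kcng1, the difference between regions. For Kcng1 these were Tmem28 (r = 0.98), Scml4 (r = 0.98) and Ntf3 (r = 0.98), the gene of neurotrophin-3. Scml4 and Ntf3 were themselves V>D, with a log2(V/D) of 1.06 and 1.90, and Tmem28 was not called. In all, 156 genes had an r over 0.9 with Kcng1, against 62 for Kcnv1, 30 for Kcnf1, 20 for Kcnb2 and 8 for Kcns2. For Kcnv1 the closest were Mme, the gene of the peptidase neprilysin, Smc6 and Rap1a, each with r = 0.98, and 0 of these were called. For Kcnb2 they were Tle3, Gm12430 and Chd1 (r from 0.95 to 0.99), for Kcnf1 Gm16378, Coa3 and Itpka (0.96 to 0.99), and for Kcns2 Gm13217, the kainate receptor gene Grik4 and Tbcel (0.93 to 0.96), also with 0 called.

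The genes that lie near the members on their chromosomes were also read. The counts below are to be read beside the 3.6% called over all genes tested. Within 1 Mb of Kcng1, 14 other genes were tested and 0 were called, with a median log2(V/D) of -0.09. Around Kcnb2, Kcnf1, Kcng2 and Kcns1, 0 of 10, 9, 9 and 29 genes were called. Around Kcnv1, 1 of 7 was called, the V>D gene Trhr, which encodes the receptor of thyrotropin-releasing hormone, and around Kcns2, 1 of 11, the D>V gene Laptm4b.

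The region difference of Kcng1 and Kcnv1 was recomputed under each change of processing.

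**Figure D5:**
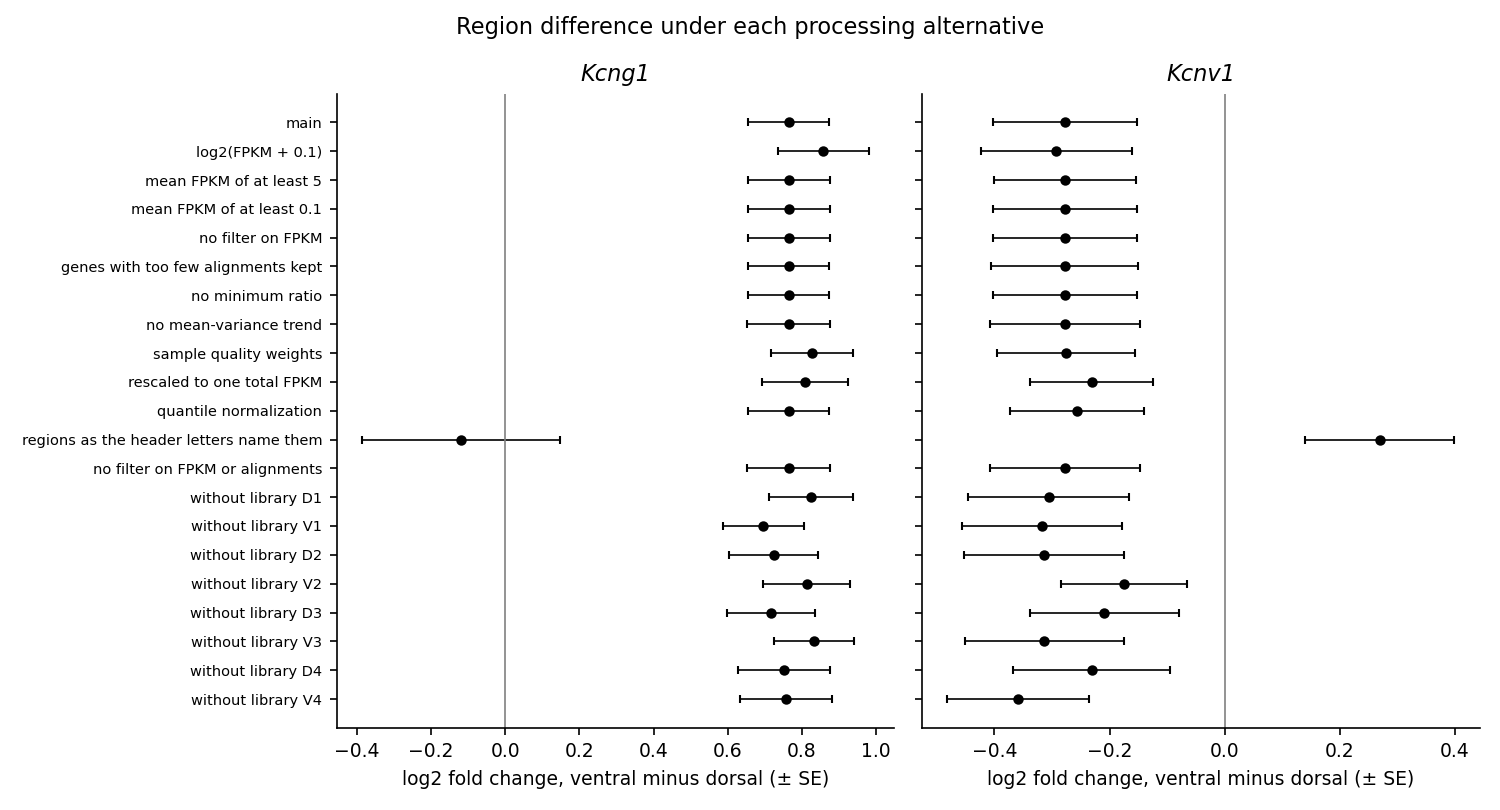
Log2 fold change, ventral minus dorsal, with its standard error (bars) from limma for Kcng1 (left) and Kcnv1 (right), for the comparison as reported (top), each processing alternative and each left-out library. The axes of the panels differ. Apart from the regions that the header letters name, where the directions turn, Kcng1 stays between 0.70 and 0.86 and Kcnv1 between -0.36 and -0.17.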

How the data were processed

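The authors sequenced paired-end libraries made from 120 ng of RNA (RNA integrity numbers 7.1 to 8.5) after amplification, used CASAVA 1.8, aligned with TopHat 2.0.8 to GRCm38 and ran Cuffdiff 2 with the Ensembl 73 annotation. The deposited FPKM values were taken as the authors gave them, scaled between libraries. From the authors' comparison table only gene symbols, loci, alignment marks and regional means were used, and its fold changes, p-values and q-values were not. A table of estimated fragment numbers, with 4 columns of per-sample values, was not used, because its replicate codes match no single sample.

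The members and gene lists were chosen with earlier results of these data known. Columns were assigned to regions by their means and not by their header letters. Genes marked as having enough alignments and with a mean FPKM of at least 1 (13674) were compared on log2(FPKM + 1) by limma 3.58.1 in R 4.3.3, which modelled the variance with a trend on the mean, with Benjamini-Hochberg adjustment. Single values were compared by exact permutation in Python 3.11.15 (NumPy 2.4.6, SciPy 1.17.1, pandas 2.3.3). Named were all members, the other family genes, all partners, called genes of the other channel lists, and the 3 genes most correlated with each tested member. A called gene near a member is named after its value was seen. Positions and sequences are those of GENCODE M21. In simulated data for this comparison over 13674 genes, the fit recovered 48 of 100 genes changed by 0.5 on the log2 scale. It recovered 83 of 100 changed by 1, made 7 other calls and made 0 calls in data drawn without any change. Each gene was drawn independently, without variation between pools that genes share, so these counts may not hold for the real libraries. Alternatives covered the constant, the filters, the ratio threshold, the variance model, weights, scaling, the regions of the headers and each library left out in turn. Protein sequences were not analysed here, and some genes of the lists are not reported here.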

Additional observations from a re-analysis of the deposited data

Results flagged for a closer look

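The FPKM of Kcnv1 in the dorsal library V2, 23.8, stood apart from the other 3 dorsal libraries (17.4, 17.6 and 17.9). Its gap to the nearest of them was 0.926 of the range of the dorsal libraries, above Dixon's 95% critical value for 4 values. Such a gap was looked for in 26 groups of 4 values, the FPKM of the members and their ratios to Kcnb2 in each region, and chance alone gives about 1 in 20. Without V2 the dorsal and ventral libraries of Kcnv1 still overlapped, and its log2 fold change went from -0.28 to -0.17. V2 also had the highest total FPKM of the 8 libraries, and the part of that in its Kcnv1 value was not tested.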

How the results depend on the processing

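Under the regions that the header letters name, 1 gene was D>V and 0 were V>D, 0 members were called, and the log2 fold change became -0.12 for Kcng1, -0.10 for Kcnf1, 0.03 for Kcnb2, -0.10 for Kcns2 and 0.27 for Kcnv1. No gene of the marker, partner and channel lists was then called either (limma). The differences of the log2 ratio to Kcnb2 then became -0.14 for Kcnf1, -0.16 for Kcng1, -0.10 for Kcns1, 0.53 for Kcng2, -0.16 for Kcns2 and 0.26 for Kcnv1. Rescaling the libraries to one total FPKM gave 195 D>V and 201 V>D genes, so that 49.2% of calls were D>V in place of 59.8%, and moved the median log2 difference over the genes tested from -0.006 to 0.04. The cause was not tested. Sample quality weights gave 361 D>V and 253 V>D genes. Leaving out single libraries gave between 157 (without V1) and 341 D>V genes, with 163 without D3 and 189 without V2, and between 91 (without V1 or D3) and 191 V>D genes, with 121 without D4 and 123 without D2. The cause was not tested. In these fits 1 member was called each time, Kcng1. The Kcnf1 ratio to Kcnb2 ranged from -0.0682 to 0.0928 and the Kcns1 ratio from -0.0527 to 0.132 over the left-out libraries, so neither has a stable direction. Apart from the headers' regions, the values for Kcnb2, Kcng1, Kcng2, Kcns2 and Kcnv1 kept their direction and their side of the threshold wherever the gene was tested (Kcns2 was not at a minimum FPKM of 5), and the adjusted p of Kcng1 (limma) lay between 0.00236 and 0.0176 over the alternatives other than the headers' regions. No paired analysis was possible because, although the regions share their groups of mice, the labels give no replicate numbers and do not say which group each library comes from. The planned comparison of protein identity was not run, as no protein table was used. The depth of the libraries is unknown, which limits Kcng2 and Kcns1 most.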

Other observations

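Some Kv1 and Kv3 genes not named above differed in mean FPKM without passing the test, and they were picked after their values were seen. Kcna3, a Kv1 subunit gene, had an FPKM of 2.16 ± 0.543 in dorsal and 3.17 ± 0.548 in ventral libraries (SD, n = 4 each; log2 fold change 0.41, adjusted p = 0.170, limma). The Kv3 subunit genes Kcnc1 and Kcnc2, both typical of fast-spiking interneurons, differed in opposite directions. Kcnc1 had 34.7 ± 1.81 and 27.7 ± 3.76 (adjusted p = 0.0931, limma), and Kcnc2 had 22.2 ± 1.46 and 26.5 ± 1.88 (adjusted p = 0.110, limma).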
